A study of Mus musculus with 24 samples.

Results

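Plasminogen activators and serpins were followed in mouse pancreatic stellate cells (PSC) as a set of 7 genes, Plau, Plaur, Plat, Serpine2, Serpinb2, Serpinf1 and Serpinh1, out of 53801 genes listed. The genes were chosen by name as the activators of plasminogen, the receptor of one of them and 4 members of the serpin family. The rule used no measured value, but it was set with earlier results of these data known, so the counts of members below are descriptions. In at least 3 of the 24 libraries all 7 exceeded an FPKM of 1 (counted fragments scaled to transcript length and library size), a level that 14452 of all genes reached.

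PSC had been isolated from wild-type (WT) C57BL/6J mice of 7 to 10 weeks, with 4 to 10 pancreata pooled for an isolation. They were kept for 24 h or 72 h either alone (control) or with KPC cells, a single pancreatic cancer line from a mouse whose alleles included p48-Cre and Trp53 R172H. In standard co-culture, labelled distant paracrine, the KPC cells grew on the well bottom below the insert with the PSC, and in inverse co-culture, labelled close paracrine, both cell types grew on opposite sides of 1 membrane with 1 µm pores. Each of the 2 models had its own mono-cultured PSC at each time, which gave 8 groups of 3 libraries, described as biological replicates. Coexistence lasted up to 72 h in the standard and up to 96 h in the inverse model. In the inverse model the PSC were seeded beside KPC cells 24 h before the count of time began. Both inverse times therefore stand for a longer coexistence than the same times of the standard model. Libraries were made from 450 ng of RNA in the standard and 120 ng in the inverse model. Model, coexistence and RNA input therefore cannot be told apart.

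Plasminogen is a circulating zymogen that is cleaved to the protease plasmin by the urokinase-type activator (Plau) or the tissue-type activator (Plat), and plasmin degrades fibrin and matrix proteins and activates matrix metalloproteinases. Plaur, the urokinase receptor, holds Plau at the cell surface, and the inhibitory serpins trap the activators in covalent complexes. Fibroblasts use this system to remodel matrix, and in pancreatic cancer the stroma is rich in both matrix and matrix-degrading enzymes.

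Before the results, the state of the libraries is given. Between 15930485 and 24795516 counted fragments stood behind a library. Replicates of a group correlated at a Pearson r of 0.953 to 0.981 in the inverse model, but in the standard model the libraries of replicate 1 correlated with the other two at only 0.899 to 0.961. Collagen and other stellate or fibroblast markers were high throughout, with a summed FPKM of 21960 to 39500 over 12 genes, although Gfap, a classic stellate marker, never exceeded an FPKM of 0.238. Among 8 epithelial or carcinoma markers the summed FPKM was 1.19 to 6.71 in the control libraries, and the co-culture library with the most, replicate 2 of the inverse model at 24 h, reached 45.7. Above all controls were also replicate 3 of inverse co-culture at 24 h, at 8.29, and replicates 1 and 3 at 72 h, at 6.999 and 10.7. All inverse co-cultures at 24 h, at 3.38 to 45.7, lay above their own controls, at 1.19 to 2.03. At 72 h the inverse means in co-culture and control were 2.04 and 0.0974 FPKM for Krt19 and 1.38 and 0 for Krt8. For Muc1, which made up most of that control sum, they were 3.24 and 3.90. Macrophage markers summed to 370 to 1244 over 8 genes in the standard libraries of replicate 2 and to 24.9 to 233 in all other libraries. The inverse controls at 72 h stood apart from both the controls at 24 h and the co-cultures at 72 h in these markers. Their macrophage sum was 121 to 233, against 71.4 to 81.9 in the 24 h controls and 51.2 to 79.8 in the 72 h co-cultures. Their adipocyte sum over 5 genes was 1636 to 2425, against 589 to 1013 and 399 to 927. The part of these other cell types in the results was not tested. In bulk libraries, fewer cells of a type and less RNA per cell cannot be told apart.

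The upstream sequence of 3 of the genes is shown because Plaur and Serpine2 rose in inverse co-culture, and Serpinh1 is the most abundant of the set. RefSeq promoters of GRCm38.p6 matched 5 of the 7 genes, and those of Plau and Plat were not used here. Each line gives the 250 bases before the RefSeq start, 5′ to 3′ on the strand of the gene, at chr7:24462233-24462482 (plus strand) for Plaur, chr1:79858666-79858915 (minus strand) for Serpine2 and chr7:99353240-99353489 (minus strand) for Serpinh1. The RefSeq start of Serpine2 lies 2515 bases downstream of the start of the GENCODE gene given with its levels, so its window falls within that gene. Capitals mark every match of 5 motifs, searched on both strands.
Plaur: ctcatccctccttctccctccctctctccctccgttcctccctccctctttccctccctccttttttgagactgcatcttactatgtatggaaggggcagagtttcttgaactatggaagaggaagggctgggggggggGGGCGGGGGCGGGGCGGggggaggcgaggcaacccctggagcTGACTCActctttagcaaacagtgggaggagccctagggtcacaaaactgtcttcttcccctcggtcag
Serpine2: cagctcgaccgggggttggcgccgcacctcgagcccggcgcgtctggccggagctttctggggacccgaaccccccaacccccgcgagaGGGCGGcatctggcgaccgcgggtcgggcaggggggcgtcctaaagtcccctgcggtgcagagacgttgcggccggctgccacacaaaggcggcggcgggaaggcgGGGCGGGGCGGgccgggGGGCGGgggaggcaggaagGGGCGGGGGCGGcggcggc
Serpinh1: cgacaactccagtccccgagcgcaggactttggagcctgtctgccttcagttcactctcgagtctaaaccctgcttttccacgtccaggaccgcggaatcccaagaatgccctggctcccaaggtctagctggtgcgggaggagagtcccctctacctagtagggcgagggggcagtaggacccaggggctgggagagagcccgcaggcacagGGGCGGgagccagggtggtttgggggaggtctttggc

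The motifs were the AP-1 site TGANTCA, the cAMP response element TGACGTCA, the GC box GGGCGG, the TATA box TATAAA and the CCAAT box CCAAT, none of which contains another. Plaur held 1 AP-1 site that began 69 bases before the start, and Serpinb2, not printed, held another that began 94 bases before it. An AP-1 site of this form occurred in 6.75% of 32851 promoters of the same length. GC boxes numbered 3 in Plaur, 6 in Serpine2 and 1 in Serpinh1, and at least 1 was found in 32.7% of all promoters. Serpine2 was GC-rich, with 78.8% G or C against a median of 52.4%, while Serpinb2 had 32.4%. A TATA box was found only in Serpinb2 among the 5 promoters (12.4% of all promoters), and Serpinf1 held 3 CCAAT boxes (33.8% of all promoters had 1 or more). The cAMP response element was in none of the 5 and in 1.55% of all promoters. These matches are letters in a window and no measurement of binding.

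The abundance of the 7 genes spanned more than 3 orders on the FPKM scale, which is per length and allows levels of different genes to be compared. Serpinh1 (ENSMUSG00000070436, chr7:99345376-99353239, GRCm38, minus strand), the endoplasmic reticulum chaperone of procollagen also known as HSP47, had a mean of 2385 FPKM and ranked 14 of all genes. Serpinf1 (ENSMUSG00000000753, chr11:75409769-75422701, minus strand), a secreted non-inhibitory serpin known as pigment epithelium-derived factor, averaged 1951 FPKM and ranked 18. Serpine2 (ENSMUSG00000026249, chr1:79794197-79861180, minus strand), protease nexin-1, an inhibitor of thrombin and of both plasminogen activators, averaged 185 FPKM. Plat (ENSMUSG00000031538, chr8:22757727-22782844, plus strand) and Plau (ENSMUSG00000021822, chr14:20836660-20843385, plus strand) were alike in level, at 72.1 and 71.6 FPKM. Plaur (ENSMUSG00000046223, chr7:24462484-24475968, plus strand) averaged 41.4 FPKM. Serpinb2 (ENSMUSG00000062345, chr1:107511423-107535478, plus strand), plasminogen activator inhibitor type 2, was near the limit of detection, with 0 to 3.23 FPKM from 0 to 77 fragments per library. Plasminogen itself (Plg) had an FPKM of 0 in all 24 libraries.

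**Figure D1:**
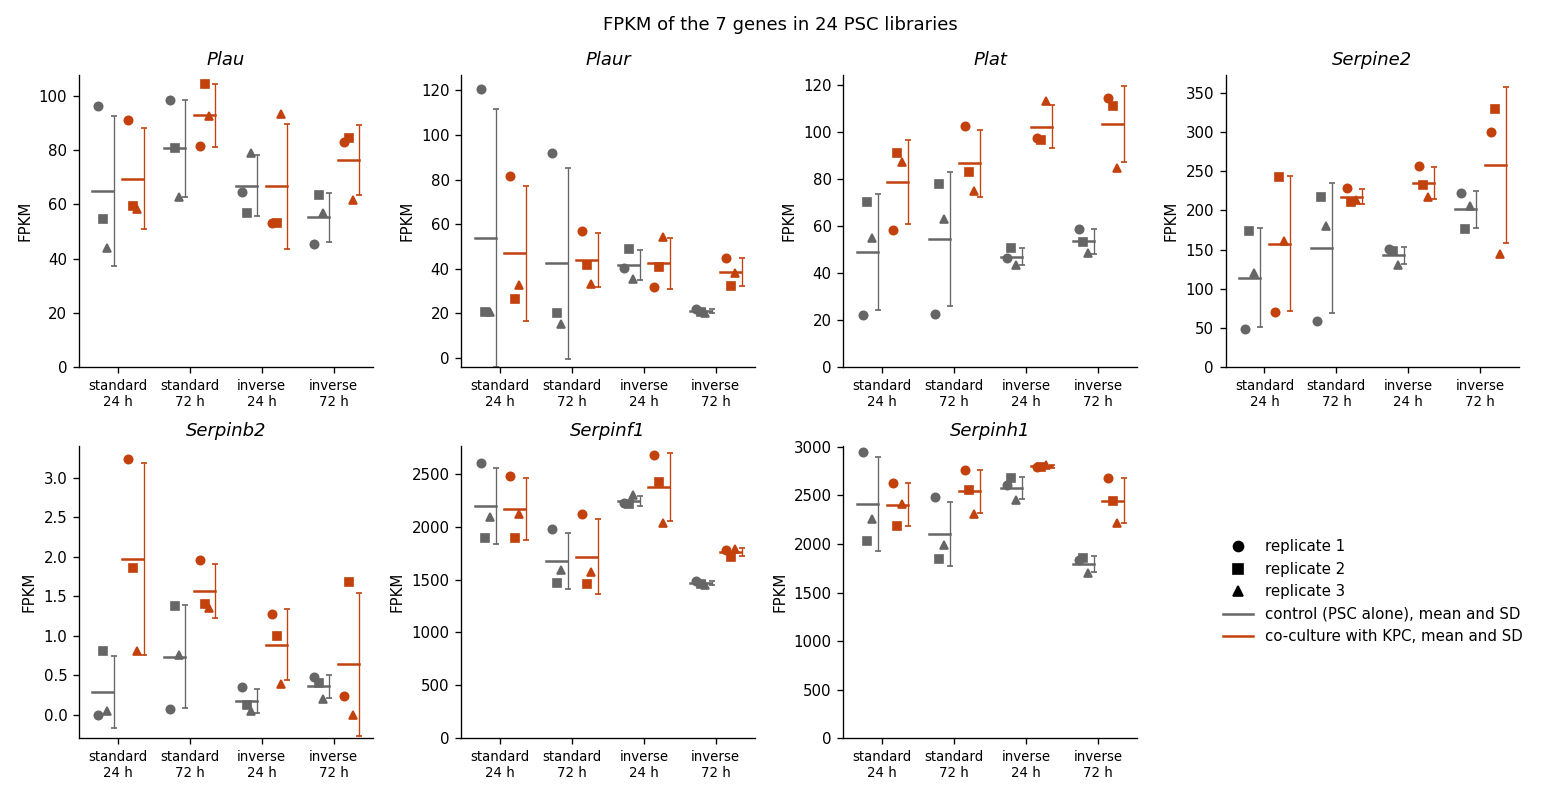
FPKM of each gene (vertical axes, FPKM) in the 24 libraries, in the order standard 24 h, standard 72 h, inverse 24 h and inverse 72 h, with controls in grey and co-cultures in orange. Symbols are replicates 1 to 3, bars are means with SD (n = 3). Plat of inverse co-culture lies at 85.0 to 114.5 FPKM, above all 6 inverse controls at 43.8 to 59.1.

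In inverse co-culture both Plat and Serpine2 were up-regulated at 24 h, and Plat and Plaur at 72 h. Plat roughly doubled at both times. None of the members tested was down-regulated by co-culture in any of the 4 comparisons, and in standard co-culture none passed the test without pairing. At 24 h in inverse co-culture, 2 of 6 members tested were called higher, where 2.47% of all tested genes were called in either direction, 1.08% higher and 1.39% lower. At 72 h 2 of 6 were called higher, where 12.8% of all tested genes were called, 3.27% higher and 9.57% lower. Over the members tested, the median log2 fold change was 0.10 at 24 h and 0.45 at 72 h, beside -0.06 and -0.16 over all genes tested. Calls rest on limma's moderated test on log2(FPKM + 0.5) with Benjamini-Hochberg adjustment over all genes tested, at an adjusted p under 0.05, and all fold changes are on that scale.

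Plat, the tissue-type activator best known for intravascular fibrinolysis, measured 97.7, 96.7 and 113 FPKM in the 3 inverse co-cultures at 24 h and 46.6, 50.8 and 43.8 FPKM in their controls. The co-cultures were all higher, and the groups were far apart. Its log2 fold change was 1.11 ± 0.11 (SE), with an adjusted p of 0.00462 in limma. At 72 h Plat measured 114, 111 and 85 FPKM in co-culture and 59.1, 53.2 and 48.6 FPKM in control. The groups were again apart, and the log2 fold change was 0.93 ± 0.14 with an adjusted limma p of 0.00843. The summed macrophage and adipocyte markers were lower in these co-cultures than in each of the inverse controls at 72 h, as given above. Their part in the values of Plat and Plaur at 72 h was not tested. Plat was called with any single library left out of either comparison, with log2 fold changes of 1.04 to 1.17 at 24 h and 0.86 to 1.07 at 72 h. Without the 24 h co-culture of replicate 2, the library with the highest epithelial markers, the value was 1.15, with an adjusted p of 0.0205 in limma. The co-culture of replicate 3, whose epithelial sum of 8.29 FPKM also exceeded every control, remained in that fit. So did that of replicate 1, at 3.38 FPKM against 1.19 to 2.03 FPKM in the inverse controls at 24 h. When all 24 libraries shared 1 estimate of the spread, however, the adjusted limma p of Plat was 0.337 at 24 h and 0.128 at 72 h.

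Plau did not follow Plat. At 24 h it measured 53.2, 53.3 and 93.4 FPKM in inverse co-culture and 64.7, 56.9 and 79.1 FPKM in control, so the groups overlapped, and the log2 fold change was -0.04 with a 95% interval of -0.55 to 0.46. At 72 h it measured 82.9, 84.5 and 61.5 FPKM and 45.4, 63.5 and 56.9 FPKM, where replicate 3 of the co-culture fell within the controls. The log2 fold change was 0.46 ± 0.17, which did not pass (adjusted p of 0.106 in limma) unless that library was left out (0.61, adjusted p of 0.0365).

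The ratio of Plat to Plau within a library does not depend on how libraries are scaled. In the inverse controls at 24 h it was 0.720, 0.894 and 0.554, and in the co-cultures 1.84, 1.81 and 1.21, so Plat was the less abundant activator in every control and the more abundant one in every co-culture. At 72 h the ratio was 1.30, 0.838 and 0.854 in control and 1.38, 1.31 and 1.38 in co-culture, which left a narrow gap between the groups. In the standard model the ratio overlapped between groups at both times. Serpine2 exceeded Plat in all 24 libraries, by 1.197-fold to 4.23-fold.

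**Figure D2:**
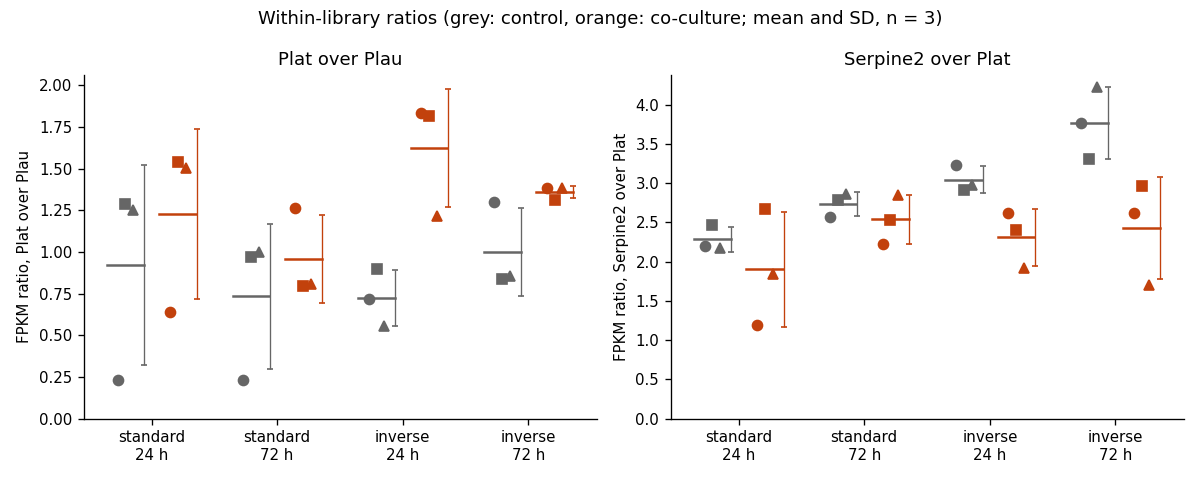
FPKM ratio of Plat to Plau (left) and of Serpine2 to Plat (right) in each library, controls in grey and co-cultures in orange, with mean and SD (n = 3). In the inverse model at 24 h the 3 co-cultures lie at a Plat to Plau ratio of 1.21 to 1.84, above the controls at 0.554 to 0.894.

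Plaur, the receptor, was up-regulated at 72 h, against controls that had fallen since 24 h. At 24 h the inverse co-cultures measured 32, 40.9 and 54.4 FPKM and the controls 40.4, 48.8 and 35.5 FPKM, which overlapped (log2 fold change 0.01, 95% interval -0.44 to 0.45). At 72 h the co-cultures measured 44.8, 32.2 and 38.1 FPKM and the controls 21.9, 20.8 and 20.3 FPKM. All 3 co-cultures were higher, with a log2 fold change of 0.84 ± 0.13 and an adjusted limma p of 0.0104. This call was lost without replicate 3 of the control, where the adjusted p was 0.0536 in limma, and with all 24 libraries in one model (0.408). The controls themselves fell by 0.96 on the log2 scale between 24 h and 72 h, with an adjusted p of 0.00263 in limma. The co-culture effect on Plaur was 0.83 ± 0.26 higher at 72 h than at 24 h (unadjusted limma p of 0.00691), but did not pass after adjustment over 13722 genes, with an adjusted limma p of 0.312.

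Serpine2 measured 256, 232 and 217 FPKM in inverse co-culture at 24 h and 151, 148 and 131 FPKM in control. The groups did not overlap, and the log2 fold change was 0.71 ± 0.10 with an adjusted p of 0.0159 in limma. The call was narrow, since the adjusted limma p rose to between 0.0559 and 0.0753 without any 1 of the 3 controls, and to 0.0609 without replicate 2 of the co-culture. It was also lost without a filter on low values, without the intensity trend and with all 24 libraries in one model (adjusted limma p of 0.789). At 72 h the co-cultures measured 300.1, 329.5 and 144 FPKM and the controls 223, 176 and 206 FPKM. Replicate 3 of the co-culture was the lowest of these 6 libraries while the other two were the highest. The log2 fold change was 0.28 ± 0.29 with all libraries and 0.65 ± 0.12 without that library, which then passed (adjusted p of 0.0192 in limma).

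Serpinb2 rested on few fragments. In inverse culture at 24 h it had 35, 29 and 8 fragments in co-culture and 7, 4 and 1 in control, which corresponds to 1.27, 0.999 and 0.392 FPKM against 0.347, 0.127 and 0.0466 FPKM. At 24 h in the standard model the co-cultures had 77, 55 and 21 fragments and the controls 0, 18 and 1. In both cases every co-culture was higher than every control, in the standard model only by 0.8099 against 0.8087 FPKM at the closest libraries. At 72 h the fragments overlapped in both models, with 6, 37 and 0 against 14, 9 and 6 in the inverse and 47, 33 and 30 against 2, 32 and 18 in the standard model. Of the comparisons of co-culture with control, the filter on low values let Serpinb2 into the test only in the standard model at 72 h. There the log2 fold change was 0.90 ± 0.48 (adjusted p of 0.799 in limma). Serpinb2 also entered the differences between models and, in the standard model, the difference between times. Without the filter the values at 24 h were 1.67 ± 0.55 in the standard and 1.01 ± 0.32 in the inverse model, with adjusted limma p-values of 1 and 0.31. A library with 0 fragments allows up to 0.104 FPKM in the standard control at 24 h and 0.127 FPKM in the inverse co-culture at 72 h, counting 3 fragments as the limit, and such limits cover counting error only.

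The abundant serpins did not pass the test in co-culture. Serpinh1 measured 2795, 2788 and 2814 FPKM in inverse co-culture at 24 h and 2605, 2678 and 2454 FPKM in control, groups that did not overlap although the log2 fold change was only 0.12 ± 0.09. At 72 h it measured 2677, 2447 and 2213 FPKM against 1831, 1853 and 1703 FPKM. All co-cultures were higher, and the log2 fold change of 0.44 ± 0.14 did not pass, with an adjusted p of 0.0721 in limma. It passed when libraries were scaled by the median of gene ratios (0.59), with limma's voom on recovered fragments (0.44) and without replicate 3 of the co-culture (0.51). Serpinf1 measured 1775, 1714 and 1792 FPKM against 1488, 1461 and 1449 FPKM at 72 h, which did not overlap either. Its log2 fold change was 0.26 ± 0.12 (adjusted p of 0.165 in limma), and at 24 h it was 0.08 ± 0.12.

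Non-overlapping groups were thus seen in the inverse model for Plat, Serpine2 and Serpinh1 at 24 h (3 of 6 members tested) and for Plaur, Plat, Serpinf1 and Serpinh1 at 72 h (4 of 6), with the co-culture higher in each. Over all tested genes, co-culture libraries all lay above the controls in 7.38% at 24 h and 9.53% at 72 h. Serpinb2, which was not tested at 24 h, is not counted here. An exact permutation test of 3 libraries against 3 cannot give a p below 0.1, and none is given.

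**Figure D3:**
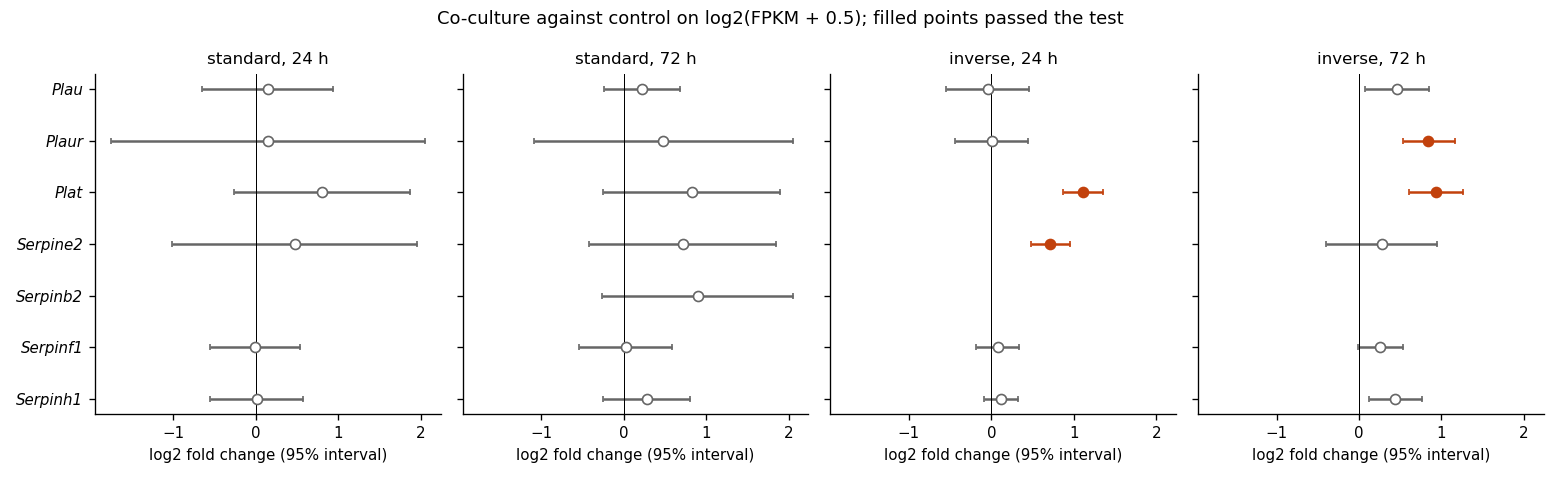
log2 fold change of co-culture against control with its 95% interval (horizontal axis) for each gene in the 4 comparisons. Filled orange points passed the test, open grey points did not, and Serpinb2 is drawn only where it was tested. Plat lies at 1.11 and 0.93 in the inverse model and at 0.80 and 0.83 in the standard model, where the intervals are wider.

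In standard co-culture, none of the 6 members tested at 24 h and none of the 7 tested at 72 h were called by limma. Nor was any of the genes tested, so that the share called was 0% at both times, although 371 and 800 genes had an unadjusted p under 0.05 and a fit with the replicate number as a block called 157 at 24 h. For the members, the median log2 fold change was 0.15 at 24 h and 0.48 at 72 h, beside -0.01 and -0.09 over all genes tested. The 72 h median includes Serpinb2, which was not tested at 24 h and passed the filter through co-cultures at 1.96, 1.40 and 1.35 FPKM. The medians thus cover different sets and are not compared.

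Replicate 1 stood apart from the other standard libraries in several members. Plat measured 22.3, 70.6 and 55 FPKM in the standard controls at 24 h and 22.8, 78.1 and 63 FPKM at 72 h. Serpine2 in the same controls measured 49, 174 and 119.7 FPKM and 58.6, 217 and 180.5 FPKM. Replicate 1 was the lowest for both genes at both times. For Plaur it was the highest, with 121, 20.5 and 20.7 FPKM at 24 h and 91.8, 20.4 and 15.3 FPKM at 72 h, which put replicate 1 more than 4-fold above the others.

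Libraries of the standard model that shared a replicate number deviated together (correlation of their deviations from the group means between 0.39 and 0.77), so their pairs are given. Plat was higher in co-culture in 3 of 3 pairs at 24 h, by 2.63-fold, 1.29-fold and 1.59-fold, with co-cultures at 58.5, 91.2 and 87.4 FPKM. At 72 h it was higher in 3 of 3 pairs by 4.49-fold, 1.06-fold and 1.19-fold, with co-cultures at 103, 83.1 and 74.9 FPKM. The increase at 72 h thus lay mostly in replicate 1. The log2 fold change of Plat was 0.80 ± 0.44 at 24 h and 0.83 ± 0.45 at 72 h, and 0.51 and 0.17 without replicate 1.

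The paired ratios of Serpine2 were alike at 24 h. Its co-cultures at 24 h measured 70.1, 243 and 161 FPKM, which were 1.43-fold, 1.39-fold and 1.34-fold above the control of the same number. Without pairing the log2 fold change was 0.47 ± 0.61 and did not pass, whereas with the replicate number as a block it was 0.47 ± 0.07 with an adjusted p of 0.0356 in limma, in a fit that called 1.22% of the genes tested. At 72 h the co-cultures measured 229, 211 and 213 FPKM, a narrow range beside controls of 58.6 to 217. The ratios were 3.90, 0.970 and 1.18, and the log2 fold change was 0.72 ± 0.47, and 0.10 without replicate 1.

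For Plaur the standard pairs differed in direction. At 24 h its co-cultures measured 81.7, 26.5 and 32.5 FPKM, with ratios to the paired controls of 0.677, 1.29 and 1.57. At 72 h they measured 57.1, 41.8 and 33.2 FPKM, with ratios of 0.622, 2.05 and 2.17. Replicate 1 was lower in co-culture, and the other two were higher. The log2 fold change was 0.15 ± 0.79 and 0.48 ± 0.65 over all libraries, and 0.50 ± 0.14 and 1.06 ± 0.20 without replicate 1, with adjusted p-values of 0.53 and 0.209 in limma. Plau measured 91.2, 59.3 and 58.2 FPKM in co-culture and 96.2, 54.7 and 44 FPKM in control at 24 h, and 81.3, 104 and 92.7 FPKM and 98.5, 80.7 and 62.9 FPKM at 72 h. Its groups overlapped at both times, with log2 fold changes of 0.15 ± 0.33 and 0.22 ± 0.19.

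Serpinf1 and Serpinh1 stayed close to their paired controls at 24 h in the standard model. The ratios were 0.955, 1.00 and 1.01 for Serpinf1 and 0.890, 1.08 and 1.07 for Serpinh1. At 72 h Serpinh1 was higher in 3 of 3 pairs, at 2758, 2558 and 2310 FPKM against 2481, 1849 and 1985 FPKM, with a log2 fold change of 0.28 ± 0.22 (adjusted p of 0.85 in limma). Serpinf1 had ratios of 1.07, 0.996 and 0.987 at that time. The standard groups overlapped for all 6 members tested at 24 h and all 7 at 72 h, where 3.35% and 3.36% of all tested genes had every co-culture above every control.

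**Figure D4:**
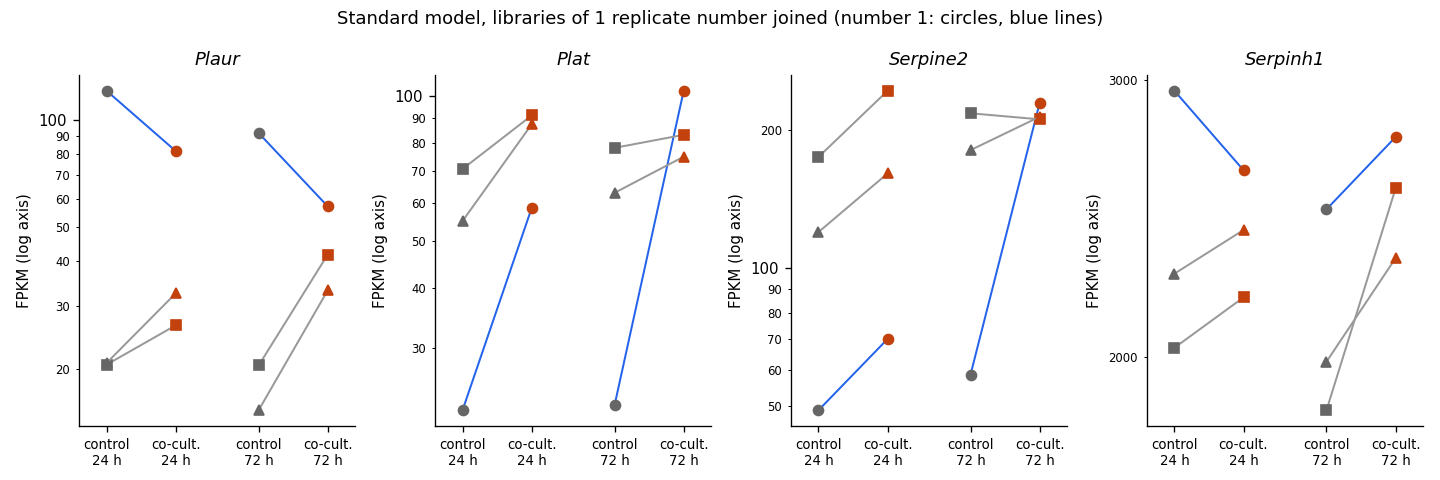
FPKM on a log axis of 4 genes in the standard model, with the control (grey) and co-culture (orange) of 1 replicate number joined by a line at 24 h and 72 h. Replicate 1 (circles, blue lines) starts highest for Plaur at 121 FPKM and lowest for Plat at 22.3 FPKM and for Serpine2 at 49.0 FPKM.

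The co-culture effects of the models were compared in a fit of all 24 libraries. None of the 7 members passed at either time, nor did any gene (0% called at 24 h and at 72 h), although 182 and 501 genes had an unadjusted p under 0.05. For Plat the inverse effect exceeded the standard effect by 0.31 on the log2 scale at 24 h, with a 95% interval of -0.78 to 1.40, and by 0.11 at 72 h, with an interval of -0.98 to 1.2. Without the standard libraries of replicate 1 the values were 0.60 ± 0.21 and 0.77 ± 0.21, with adjusted p-values of 1 and 0.693 in limma. For Plaur the 24 h interval was -1.92 to 1.64 and the 72 h interval -1.41 to 2.14. For Serpine2 they were -1.17 to 1.66 and -1.85 to 0.97. With the replicate number of each model as a block, no member passed either (0% of genes called at 24 h and 0.111% at 72 h), and the intervals were narrower. At 24 h they were then -0.53 to 1.16 for Plat, -1.06 to 0.78 for Plaur and -0.67 to 1.16 for Serpine2. At 72 h they were -0.74 to 0.95, -0.56 to 1.29 and -1.36 to 0.48. Differences of 2-fold in at least 1 direction therefore lay within the 24 h interval of each of these 3 genes.

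No member passed when the co-culture effect at 72 h was compared with that at 24 h, in either model, with 0% of genes called in each and 141 genes in the standard and 1471 in the inverse model at an unadjusted p under 0.05. The controls of the 2 models did not differ detectably for any member (0% of genes called at both times by limma, 225 and 810 at an unadjusted p under 0.05). When replicate 1 of the standard control was left out at 24 h, Plaur was higher in the inverse control by 0.98 ± 0.15 on the log2 scale, with an adjusted limma p of 0.046.

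Mono-cultured PSC of the inverse model changed between 24 h and 72 h. Of the 6 members tested, 3 were lower at 72 h and 1 was higher, while 19.2% of all tested genes were called, 9.05% lower and 10.2% higher. Without a filter on low values the call of Plaur alone was kept, with all 24 libraries in one model none was, and the shift in macrophage and adipocyte markers over the same time is given above. Beside Plaur, Serpinf1 fell from 2220, 2216 and 2296 FPKM to 1488, 1461 and 1449 FPKM, a log2 fold change of -0.61 ± 0.09 with an adjusted p of 0.00384 in limma. Serpinh1 fell by 0.52 on the log2 scale (adjusted limma p of 0.00935), and Serpine2 rose by 0.49 (adjusted limma p of 0.0173). Plat, at 0.18 ± 0.11, and Plau, at -0.27 ± 0.15, did not pass. Without the filter, the adjusted limma p of Serpine2, Serpinf1 and Serpinh1 was 0.0519, 0.0673 and 0.138.

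In the standard controls no member and no gene passed between 24 h and 72 h (0% called by limma, 127 genes at an unadjusted p under 0.05). Same-numbered libraries deviated together here too (correlations of 0.40 to 0.72), so the pairs are given. Serpinf1 was lower at 72 h in 3 of 3 pairs, with ratios of 0.761, 0.774 and 0.759, and Serpine2 was higher in 3 of 3 pairs, with ratios of 1.2, 1.24 and 1.51. When libraries of the same number were blocked, the log2 fold changes were -0.39 ± 0.11 for Serpinf1 and 0.39 ± 0.11 for Serpine2, against SEs of 0.25 and 0.65 without it. Neither passed with the block (adjusted limma p of 0.425 for each), nor did any gene (0% called, 1155 genes at an unadjusted p under 0.05). Serpinh1 was lower in 3 of 3 pairs, with ratios of 0.841, 0.913 and 0.879, and also did not pass.

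Ordered by mean level over the 8 groups, Plat was highest in inverse co-culture, with 103 ± 16.1 FPKM at 72 h and 103 ± 9.28 FPKM at 24 h (SD, n = 3), followed by standard co-culture with 86.8 ± 14.2 at 72 h and 79.0 ± 17.8 at 24 h. The 4 control groups followed with means between 47.1 and 54.6 FPKM. The 4 co-culture groups thus had higher means than all 4 control groups, but all 7 neighbouring pairs in this order overlapped in range. Serpine2 was also highest in inverse co-culture (258 ± 99.5 FPKM at 72 h and 235 ± 19.9 FPKM at 24 h) and lowest in the standard control at 24 h (114 ± 62.8 FPKM), again with overlap between all neighbours. Plau ranged from 55.3 ± 9.13 FPKM in the inverse control at 72 h to 92.8 ± 11.5 FPKM in standard co-culture at 72 h, with overlap throughout. The inverse control at 72 h was the lowest group for Plaur (21.01 ± 0.828 FPKM), Serpinf1 (1466 ± 19.9 FPKM) and Serpinh1 (1796 ± 81.3 FPKM) as well. For Plaur this group did not overlap with the next, inverse co-culture at 72 h.

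Some members varied alike over the 24 libraries. The values below are descriptions without a test, since libraries of 1 group and of 1 replicate number are not independent. Plat and Serpine2 correlated at a Pearson r of 0.84 on log2(FPKM + 0.5), with 0.90 in the 12 standard and 0.74 in the 12 inverse libraries. Plaur and Serpinh1 correlated at 0.78 (0.88 and 0.89), and Serpinf1 and Serpinh1 at 0.77 (0.65 and 0.85). Plaur also correlated with Plau (0.63) and with Serpinf1 (0.59), and the next highest value was 0.55, for Plat and Serpinb2. Plaur and Serpine2 ran against each other in the standard libraries (-0.73) and not in the inverse libraries (-0.07).

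The genes most like each member in their pattern over the 24 libraries, among 14451 others that exceeded 1 FPKM in 3 or more libraries, were as follows. For Plat these were Dio3 (r of 0.97), a deiodinase that inactivates thyroid hormone, Aebp1 (0.96) and Spp1, which encodes osteopontin (0.95). Serpine2 was most like Colec12 (0.96), a scavenger receptor, Serpina3n (0.95) and Pros1 (0.94), which encodes the anticoagulant protein S. Plaur was most like Tubb6 (0.95), a tubulin, Tnfrsf12a (0.94), the receptor of TWEAK, and Nop58 (0.93), a nucleolar protein. For Plau the best values were lower, with Cfap43 (0.78), Col4a2 (0.73) and Srf (0.72), the serum response factor. Serpinh1 was most like Kdelr3 (0.93), a receptor that retains endoplasmic reticulum proteins, Glipr2 (0.90) and Morf4l2 (0.90). Serpinf1 was most like Rpsa-ps10 (0.96), Rpsa (0.96) and Rps2 (0.93), of which the first is a pseudogene of the second and may share reads with it. Serpinb2, at its low counts, was most like Mmp8, Rnf149 and Il1rn (0.81 each).

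Other genes of the plasminogen system were counted from a list of 27, of which 15 could be tested in the inverse model. At 24 h 1 rose and 1 fell, where 1.08% of all genes tested were called higher and 1.39% lower. The median was 0.02 on the log2 scale beside -0.06 over all genes. Mmp3, or stromelysin-1, a metalloproteinase whose zymogen plasmin can activate, rose from 12.7 ± 4.84 to 72.7 ± 12.4 FPKM (SD, n = 3), a log2 fold change of 2.54 ± 0.28 with an adjusted limma p of 0.0052. F2r, the thrombin receptor, fell by 0.45 on the log2 scale (adjusted limma p of 0.0338). At 72 h 3 rose and 3 fell, where 3.27% of all genes tested were called higher and 9.57% lower, with a median of 0.15 beside -0.16. Mmp3 rose by 1.51 ± 0.39 (adjusted limma p of 0.0441). Tfpi2, an inhibitor of plasmin, rose from 7.11 ± 1.13 to 17.03 ± 1.43 FPKM (1.21 ± 0.15, adjusted limma p of 0.00615). Vtn, vitronectin, a ligand of the urokinase receptor, fell from 4.69 ± 1.79 to 0.586 ± 0.26 FPKM (-2.22 ± 0.35, adjusted limma p of 0.0102). With co-cultures below 1 FPKM, Vtn passed the filter on low values through its controls. These controls had risen by 1.43 ± 0.31 on the log2 scale since 24 h (adjusted limma p of 0.0157). The fall of Vtn may be tied to its entry into the test and is a description.

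The other 3 of these calls are named after their values were seen. Mrc2, a collagen receptor that associates with the urokinase receptor, rose by 0.78 ± 0.10 (adjusted limma p of 0.0069). F3, tissue factor, fell by 0.66 on the log2 scale, and Plgrkt, a plasminogen receptor, fell by 0.40 (adjusted limma p of 0.0345 and 0.0333). In standard co-culture none of 16 tested was called at either time. There Mmp3 had log2 fold changes of 2.06 ± 1.28 at 24 h and 3.55 ± 1.59 at 72 h, with wide SEs. Tfpi2 had 0.72 ± 0.21 and 1.01 ± 0.39, and Vtn had -0.46 ± 0.68 and -0.26 ± 1.23.

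The serpin family had 63 further genes that were considered, of which 13 exceeded 1 FPKM in 3 or more libraries and 11 were tested in the inverse model. At 24 h 2 rose and none fell, with a median of 0.53 on the log2 scale beside -0.06 over all genes, of which 1.08% were called higher. Serpina3n, an inhibitor of leukocyte proteases, rose from 43.3 ± 4.10 to 119 ± 9.26 FPKM (1.45 ± 0.11, adjusted limma p of 0.00318). Serpina3g, an inhibitor of cathepsins, rose from 6.73 ± 2.85 to 24.3 ± 2.04 FPKM (1.87 ± 0.29, adjusted limma p of 0.0165). Members of the Serpina3 cluster are close copies of one another, so the split of reads between them is uncertain. At 72 h 1 rose, Serpinb9b (1.30 ± 0.18, adjusted limma p of 0.00729), and 2 fell, Serpina3c (-2.86 ± 0.34, adjusted limma p of 0.00485) and Serpinb8 (-1.38 ± 0.34, adjusted limma p of 0.0372), with a median of 0.28 beside -0.16, where 3.27% of all genes were called higher and 9.57% lower. Serpinb8 passed the filter on low values in inverse co-culture at 72 h and not at 24 h. Its fall may be tied to its entry into the test and is a description. Serpina3c fell against inverse controls that had themselves risen since 24 h, by 1.71 ± 0.28 on the log2 scale (adjusted limma p of 0.00513). In standard co-culture no other serpin was called among 10 and 11 tested, and with the replicate block Serpina3n passed at 24 h (0.72 ± 0.09, adjusted limma p of 0.024).

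Collagens and the enzymes that fold and modify them, the surroundings in which Serpinh1 acts, were all tested (20 of 20). Of these, 1 rose at 24 h and 4 rose at 72 h in inverse co-culture, and none fell, where 1.08% and 3.27% of all genes tested were called higher. Values above 0 were found for 18 and 19 of the 20, against 37.9% and 31.7% of all genes tested, and the median log2 fold change was 0.20 at both times, beside -0.06 and -0.16. Col3a1, a fibrillar collagen, was the one that rose at 24 h, from 8272 ± 498 to 12410 ± 486 FPKM (0.59 ± 0.11, adjusted limma p of 0.0299). At 72 h P4ha1 and P4ha2, catalytic subunits of prolyl 4-hydroxylase, rose by 1.08 ± 0.10 and 0.70 ± 0.14 (adjusted limma p of 0.0036 and 0.0208), and Plod1, a lysyl hydroxylase, rose by 0.74 ± 0.14 (adjusted limma p of 0.0185). The fourth, named after its values were seen, was Col5a2 (0.57 ± 0.14, adjusted limma p of 0.036). In the standard model none was called, and 19 of 20 values were above 0 at each time, against 47.5% and 34.5% of all genes tested.

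**Figure D5:**
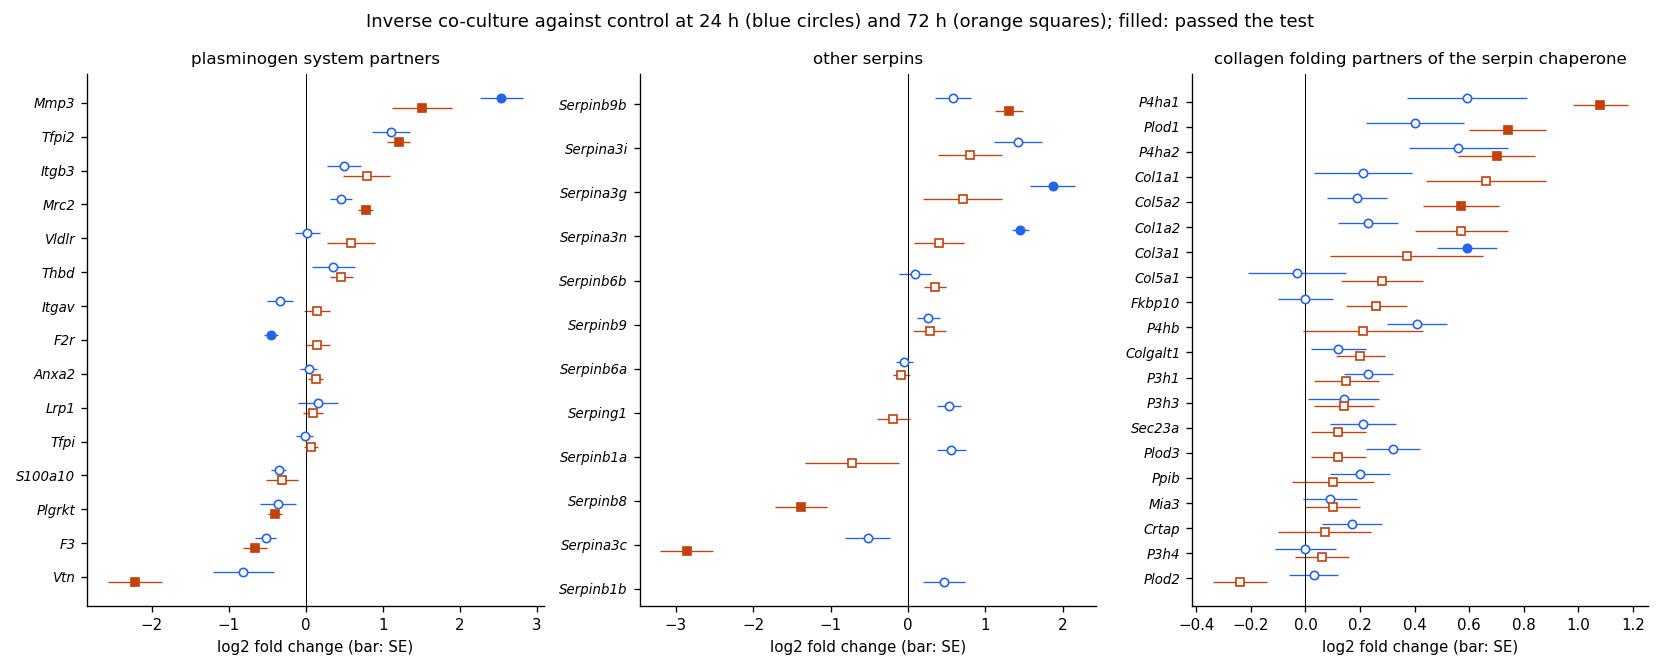
log2 fold change (horizontal axes, bars are SE) of inverse co-culture against control for plasminogen system genes, other serpins and collagen folding genes, at 24 h (blue circles) and 72 h (orange squares), with filled symbols for genes that passed. A gene without a symbol at a time was not tested there. Mmp3 has the highest values of the left panel, at 2.54 and 1.51, and Serpina3c the lowest of the middle panel, at -2.86.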

How the data were processed

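PSC of 8 groups were sequenced as poly-A RNA, with 3 libraries per group. The authors had reads aligned with HISAT2 2.0.5 to GRCm38.p6 and counted with featureCounts 1.5.0-p3 at default settings, which ignore the strand, and deposited FPKM per gene and library. They called DEG with DESeq2 1.20.0 on counts that were not used here. Groups were taken from the sample titles, and 0 columns had no sample. Of 53801 genes, 53706 were matched to GENCODE annotation of GRCm38. Counted fragments per library were recovered from the steps between low FPKM values, 95.6% to 96.7% of which were whole within 0.05 fragments, with the mean transcript length of a gene as its length. Depth was 15930485 to 24795516 fragments, median 18857694. At this depth a gene near 1 FPKM rests on few fragments.

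The test was limma's (version 3.58.1, R 4.3.3), moderated and two-sided with an intensity trend, on log2(FPKM + 0.5) of genes that exceeded 1 FPKM in 3 or more libraries of the fit, in 12 comparisons, each with Benjamini-Hochberg adjustment at 0.05. Each co-culture was fitted with its own control (6 libraries), differences between models over 24 and between times over 12 libraries. Only the fits of co-culture against control were run on simulated data. The simulated errors were independent between libraries, unlike the deviations of same-numbered standard libraries, so the simulation does not cover that pairing. The members and lists were chosen with earlier results of these data known. Genes named are the 7 members, the 3 genes most like each over the 24 libraries, and of each list up to 3 called genes with the largest change per co-culture comparison, beside those said to be named after their values were seen. The lists were other serpins, plasminogen system partners and collagen folding partners, and markers of stellate, epithelial, macrophage, endothelial, mesothelial, adipocyte and acinar cells. 1 gene of the first 2 lists is not reported here and was left out of their counts. Same-numbered libraries of the standard model deviated together in all pairs, at a correlation of 0.39 to 0.77, whereas those of the inverse model did not (-0.12 to 0.12). No source used here says what the numbers stand for. Alternatives were pseudocounts of 1 and 0.1, no filter, only genes averaging over 5 FPKM, median-of-ratios scaling, no intensity trend, all 24 libraries in one model (for the difference between models, the 12 of the time point), the replicate block, voom on recovered fragments, each library left out, and the standard libraries of replicate 1 left out, which was chosen after seeing the data. Endothelial markers summed to 0.888 to 2.44 FPKM, acinar to 6.32 to 20.1 and mesothelial to 13.4 to 48.1, each over 5 genes. Python 3.11.15 with numpy 2.4.6, pandas 2.3.3 and matplotlib 3.10.9 was used.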

Additional observations from a re-analysis of the deposited data

How the results depend on the processing

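The number of members called per comparison was the measure followed through the alternatives. The share of all genes called is not given beside each alternative. The counts therefore describe the fits and are no result about the members. For inverse co-culture at 24 h (2 called) it was 1 without a filter and without an intensity trend, Plat in both, and 0 with all 24 libraries in one model, and it lay between 1 and 2 with a library left out. For inverse co-culture at 72 h (2 called) it was 3 with median-of-ratios scaling and with voom, Serpinh1 being the third, 0 with all 24 libraries and between 1 and 5 with a library left out, namely 5 without co-culture replicate 3 and 1 without control replicate 3. For the inverse controls over time (4 called) it was 1 without a filter, 0 with all 24 libraries and between 2 and 4 with a library left out, the 2 without replicate 2 of the 24 h control. For the controls of both models at 24 h (0 called) it was between 0 and 1 with a library left out and 1 (Plaur) without the standard libraries of replicate 1. With all 24 libraries the standard libraries of replicate 1 enter the estimate of the spread. Leaving out a library also leaves fewer libraries to estimate it.

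A replicate block, which pairs the libraries of a number, gave for the standard model at 24 h 1 member called instead of 0, Serpine2 at 0.47, and the block changed no other count of members in the co-culture comparisons. In the inverse model, where the numbers are not shown to pair libraries, Plat (adjusted p of 0.0251 at 24 h and 0.0217 at 72 h in limma), Serpine2 at 24 h (0.0473) and Plaur at 72 h (0.0292) were called with the block too.

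In the 4 co-culture comparisons and the inverse controls over time, changes of sign were seen only in members that were not called. For Serpinf1 in the standard model the value was 0.00 at 24 h with median-of-ratios scaling, and 0.01 at 24 h and -0.01 at 72 h without replicate 1. At 24 h in inverse co-culture Plau was 0.02 with median-of-ratios scaling and Plaur -0.03 with voom. With a library left out, values in the standard model at 24 h ranged from -0.09 to 0.47 for Plau, from -0.34 to 0.99 for Plaur, from -0.05 to 0.97 for Serpine2, from -0.12 to 0.11 for Serpinf1 and from -0.11 to 0.16 for Serpinh1. At 72 h they ranged from -0.02 to 1.26 for Plaur and from -0.14 to 0.15 for Serpinf1. For inverse co-culture at 24 h they ranged from -0.31 to 0.09 for Plau, from -0.19 to 0.19 for Plaur and from -0.01 to 0.18 for Serpinf1. The cause of these changes was not tested. Of the genes most like a member, those of Plau changed most when correlated over the 8 group means, with Srf at 0.41. Depth limits Serpinb2, with at most 77 fragments in a library.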
